A study of Mus musculus with 54 samples.

Results

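Ribosome biogenesis and nucleolar genes were followed through a time course of mouse 3T3-L1 cells given prieurianin. The set holds 40 genes, chosen by symbol for their roles in RNA polymerase I transcription, in the small nucleolar ribonucleoproteins (snoRNPs), in nucleolar organisation and in the processing of the small and large ribosomal subunits. Of these, 35 had a probe on the array and 34 passed the filter on dim probes, out of 12792 genes tested and 16637 genes with a probe. Fbl, Polr1d, Dkc1, Ddx18 and Noc2l were not analysed here, and Wdr12 was too dim to test, with a mean level of 5.93 against a filter at 6.07 on the log2(intensity + 16) scale used for all levels.

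Ribosomes are built in the nucleolus. RNA polymerase I copies the ribosomal DNA into a long precursor RNA, snoRNPs guide its chemical modification and cleavage, and processing factors cut, fold and pack it into the small and large subunits. Cells that leave rest and prepare to divide raise the expression of these factors before they replicate their DNA, and the MYC transcription factor is a known activator of many of them.

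The 3T3-L1 line is a mouse embryonic fibroblast line committed to the adipocyte lineage, which differentiates into fat cells in culture. Prieurianin, a limonoid from plants of the mahogany family, was applied at 2 µM. The other arms received 0.5% DMSO or were left untreated, and the series describes the untreated cells as differentiating normally. Each arm had 1 array at each of 18 times, which makes 54 arrays of total RNA labelled with 1 dye. There were 4 times within the first hour (0, 0.25, 0.5 and 1 h), 3 times at 2 to 5 h (2, 3 and 5 h), 3 times at 9 to 15 h (9, 12 and 15 h), 3 times at 24 to 48 h (24, 36 and 48 h) and 5 times at 96 to 288 h (96, 144, 192, 240 and 288 h). The labels do not say whether the arrays came from separate cultures, so the times within each of these 5 windows stood in for replicates. Neighbouring times are not independent samples. For changes over the course, p-values measure the spread of times around the mean of each window. For differences between arms, they measure how much those differences varied from time to time within windows.

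The median intensity of an array lay between 88 and 313, between 93 and 176 probes per array were saturated, and pairs of arrays correlated at 0.893 to 0.996 across genes. All 6 preadipocyte markers were measured, with a mean level of 14.4 in prieurianin cells, 14.41 in DMSO cells and 14.44 in untreated cells at 0 h. The 7 adipocyte markers had a mean level of 12.45, 12.68, 14.52, 10.93 and 10.6 in prieurianin cells at 96, 144, 192, 240 and 288 h, against 13.58 to 14.36 on the late control arrays. The prieurianin array at 192 h thus stood apart from the other late arrays of its arm. It correlated with them at 0.912 to 0.955 across genes, and with the late DMSO and untreated arrays at 0.95 to 0.969 and 0.946 to 0.971. Results for 96 to 288 h are therefore given with and without it. Of the markers of other cell types, 3 of 5 macrophage genes and 1 of 5 endothelial and epithelial genes passed the filter. The mean level of the 5 macrophage genes was 6.21 to 7.84 in prieurianin cells, 6.18 to 7.35 in DMSO cells and 6.37 to 7.52 in untreated cells. Because these are bulk samples, fewer cells of one kind and less RNA per cell cannot be told apart.

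The promoters of 4 members are shown because these genes stand at both ends of the response described below: Nop2, Nop56 and Npm3 were among the members most reduced by prieurianin, and Rrn3 was not reduced. The 250 bases before each gene's start are given 5′ to 3′ on the gene's strand, from RefSeq on GRCm38.p6, with the E-box CACGTG, the sequence bound by MYC and MAX, in capitals. CACGTG reads the same on both strands, so 1 search covers both.
Nop2 (chr6:125131633-125131882, plus strand): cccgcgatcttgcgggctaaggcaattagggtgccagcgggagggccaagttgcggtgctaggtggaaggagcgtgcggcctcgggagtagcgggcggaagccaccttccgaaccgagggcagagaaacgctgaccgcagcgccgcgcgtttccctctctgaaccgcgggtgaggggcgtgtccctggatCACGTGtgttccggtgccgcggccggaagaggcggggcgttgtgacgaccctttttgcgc
Rrn3 (chr16:13780449-13780698, plus strand): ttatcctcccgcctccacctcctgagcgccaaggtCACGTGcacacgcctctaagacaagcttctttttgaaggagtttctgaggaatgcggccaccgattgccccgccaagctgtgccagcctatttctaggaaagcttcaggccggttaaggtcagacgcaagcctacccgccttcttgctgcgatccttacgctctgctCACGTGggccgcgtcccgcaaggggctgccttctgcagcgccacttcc
Nop56 (chr2:130274162-130274411, plus strand): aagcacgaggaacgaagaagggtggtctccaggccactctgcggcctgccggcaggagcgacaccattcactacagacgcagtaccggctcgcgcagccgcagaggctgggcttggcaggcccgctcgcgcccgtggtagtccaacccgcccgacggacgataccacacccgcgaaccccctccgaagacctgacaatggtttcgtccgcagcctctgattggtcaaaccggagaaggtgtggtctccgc
Npm3 (chr19:45749566-45749815, minus strand): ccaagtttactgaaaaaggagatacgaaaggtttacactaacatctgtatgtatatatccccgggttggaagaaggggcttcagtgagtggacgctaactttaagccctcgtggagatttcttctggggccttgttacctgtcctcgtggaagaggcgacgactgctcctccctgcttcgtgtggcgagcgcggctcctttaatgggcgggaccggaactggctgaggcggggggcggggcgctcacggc
The E-box stood 60 bases before the start of Nop2, and at 215 and 48 bases before the start of Rrn3. None was found in these windows of Nop56 and Npm3. Of the 35 members with a promoter entry, 4 held CACGTG in this window (Rrn3, Nop2, Utp18 and Imp4), which is 11.4%, against 12.2% of 82 other ribosome biogenesis factors and 6.86% of 27025 genes. These 35 are not the same 35 that had a probe. They include Polr1d, Dkc1, Ddx18 and Noc2l, and lack Tcof1, Npm1, Rrp12 and Bop1. With the 50 bases after the start included, the shares were 22.9% of members, 23.2% of the other factors and 8.09% of all genes. These are matches of letters, not sites shown to be bound.

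The first question was when the gene set moved in cells that did not receive the compound. The mean level of the 34 members climbed between 1 and 5 h and then stayed high until 15 h in both controls. DMSO cells gave 11.52, 11.8, 12.08 and 12.27 over 1, 2, 3 and 5 h, then 12.18, 12.19, 12.1 and 11.81 over 9, 12, 15 and 24 h. Untreated cells gave 11.45, 11.72, 12 and 12.19, followed by 12.13, 12.12, 12.07 and 11.8, at the same times. Both controls therefore had their highest mean at 5 h and a plateau of about the same height through 15 h. A list of 28 DNA replication genes ran later. Its mean level was highest at 15 h, at 12.39 in DMSO cells and 12.4 in untreated cells. At 2 to 5 h none of these genes was called higher in the controls and 9 were called lower. Over all genes tested, 11.2% were called higher and 13.2% lower there.

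**Figure D1:**
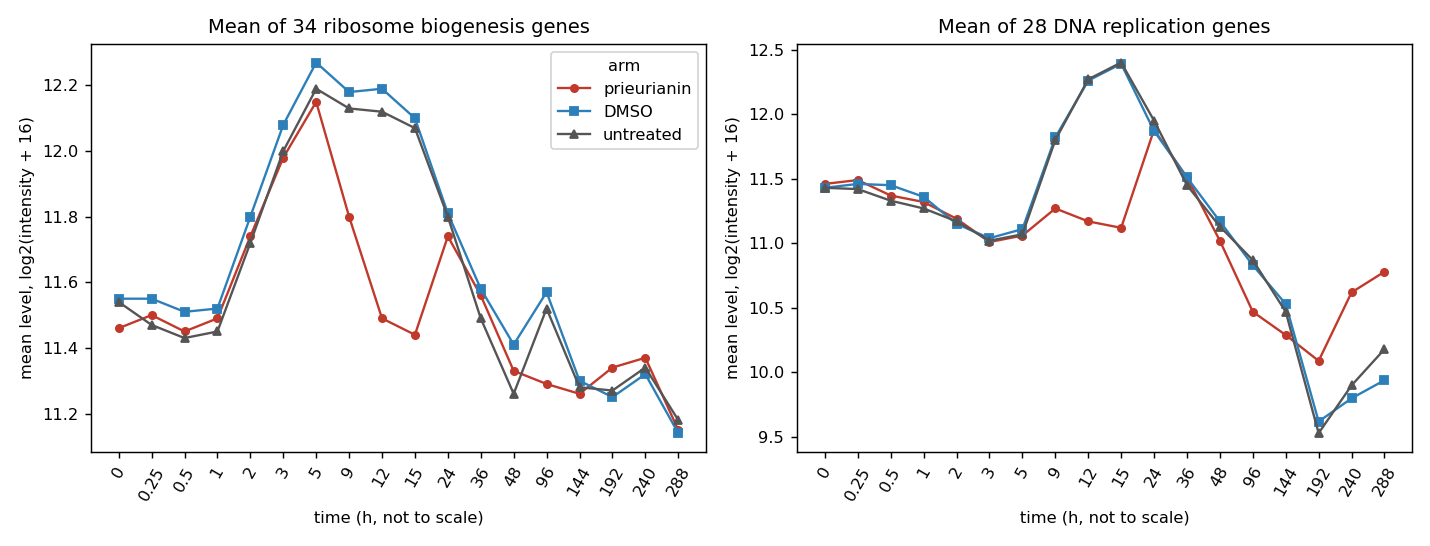
Mean level (log2(intensity + 16), vertical axis) of the 34 tested ribosome biogenesis genes (left) and of 28 DNA replication genes (right) at each of the 18 times (horizontal axis, not to scale), 1 point per array, in prieurianin, DMSO and untreated cells. The ribosome biogenesis mean peaks at 5 h in all 3 arms and then drops early with prieurianin, to 11.44 at 15 h against 12.1 in DMSO cells, and the replication mean peaks at 15 h in both controls and at 24 h with prieurianin.

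Against 0 to 1 h, 21 of the 34 members rose at 2 to 5 h in the mean of both controls and none fell, where 11.2% of all genes tested were called higher and 13.2% lower (limma, Benjamini-Hochberg adjusted p under 0.05). At 9 to 15 h, 27 members rose and none fell, where 17.8% of all genes were called higher and 16.5% lower. The count of 21 was 13 without scaling, and the count of 27 was 9 with wider windows of 0 to 3 and 5 to 48 h. The members' median log2 change was 0.49 and 0.63 in these windows, beside a median of -0.03 and 0.01 over all genes. At 24 to 48 h, taken as a window, the wave had faded: 4 members were called higher and 2 lower, against 12.8% and 13.6% of all genes. The decline was still under way at 24 h. The members' mean level was then 11.81 in DMSO and 11.8 in untreated cells, above their 0 to 1 h means of 11.53 and 11.47. At 96 to 288 h, 11 members were called lower and 4 higher, where 24.2% of all genes were called lower and 23.1% higher.

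Taken by role, all 7 snoRNP genes rose at 9 to 15 h in the controls, as did 5 of 7 RNA polymerase I genes, 4 of 5 nucleolar chaperones and hubs, 7 of 10 small subunit factors and 4 of 5 large subunit factors. The leading small subunit gene was Rrp12, an export and maturation factor of the pre-40S particle, with a log2 change of 1.25 ± 0.19 (SE; adjusted p = 1.4e-06). Nhp2, a core protein of the H/ACA snoRNPs that guide pseudouridylation, changed by 1.07 ± 0.12 (adjusted p = 2.3e-09). The nucleolar RNA helicase Ddx21 changed by 1.13 ± 0.16 (adjusted p = 3.4e-07). Each of these had already risen at 2 to 5 h, by 1.12, 0.65 and 1.13 on the log2 scale. Members that were not called in either window in the controls were Ubtf, Tcof1, Npm1, Utp18, Utp20 and Pes1. On the probes used, the wave thus did not take in the whole set.

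In prieurianin cells the first part of the wave was there. At 2 to 5 h, 17 of 34 members rose and none fell, where 5.18% of all genes were called higher and 5.82% lower, and the members' median log2 change was 0.48. The count of 17 rested on few arrays: it was 6 without the 5 h arrays, 7 without the 3 h arrays, 11 without the 0.5 h arrays, 6 with median centring and 4 without scaling. Each control arm taken alone, with the same number of arrays, gave 14 members higher in DMSO cells (4.41% of all genes) and 15 in untreated cells (6.9% of all genes). The mean level of the members in prieurianin cells was 11.49, 11.74, 11.98 and 12.15 at 1, 2, 3 and 5 h. Compared directly with DMSO at 2 to 5 h, no member was called in either direction, where 0.164% of all genes were called. All 34 had an unadjusted p above 0.05, and the members' median log2 difference was -0.09. The lowest p belonged to Gar1, an H/ACA core protein, with a log2 difference of -0.19 ± 0.11. Utp20, Rrp1b, Rrp9, Nhp2 and Ubtf followed, with log2 differences of -0.42, -0.21, -0.24, -0.19 and -0.16, all at an adjusted p of 1. For Rrp9, the protein that marks the U3 snoRNP, the change from 0 to 1 h was 1.13 ± 0.22 with prieurianin and 1.11 ± 0.15 in the controls.

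**Figure D2:**
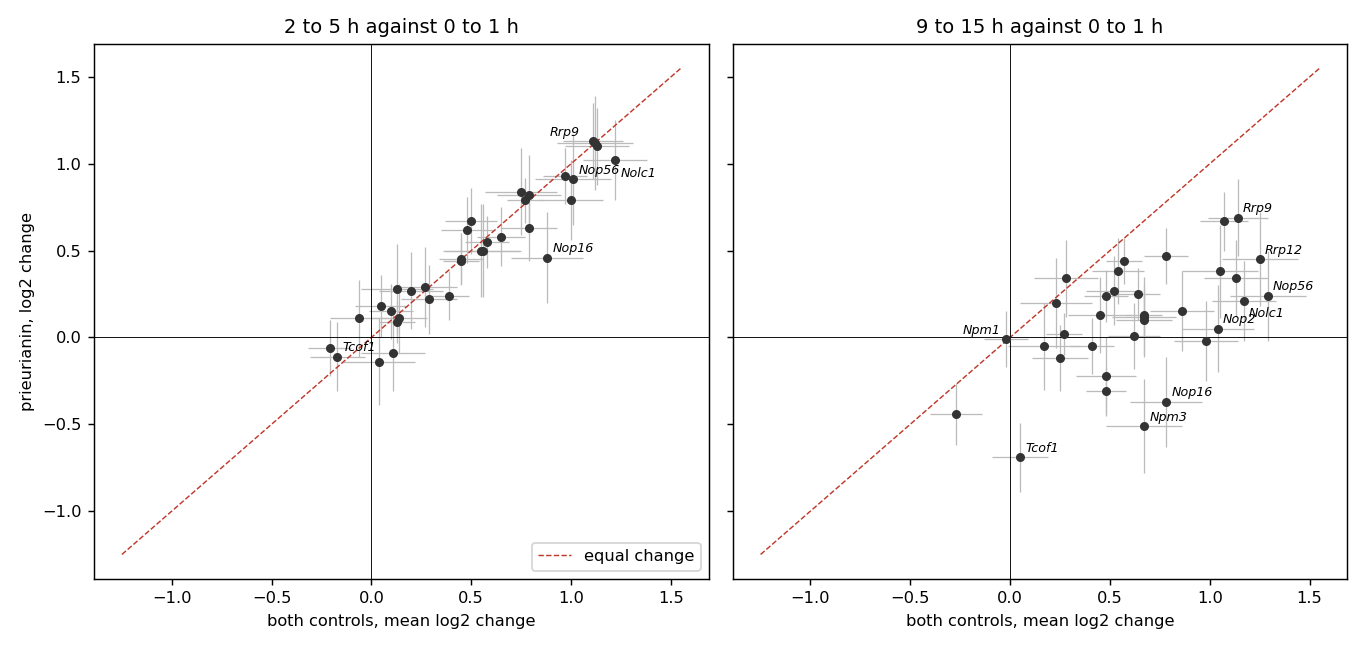
Log2 change of each of the 34 members from 0 to 1 h in the mean of both controls (horizontal axis) and in prieurianin cells (vertical axis), at 2 to 5 h (left) and 9 to 15 h (right), with standard errors from the fit as grey bars and equal change as a dashed line. At 2 to 5 h the points lie along the line, and at 9 to 15 h nearly all lie below it, Nop56 for example at 0.24 with prieurianin and 1.29 in controls.

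After 5 h the arms parted. The mean level of the members in prieurianin cells was 11.8, 11.49 and 11.44 at 9, 12 and 15 h, against 12.18, 12.19 and 12.1 in DMSO cells and 12.13, 12.12 and 12.07 in untreated cells. At 12 and 15 h the prieurianin mean was thus back at its level of the first hour, where its 4 arrays read 11.45 to 11.5. In the fit for 9 to 15 h, 24 of the 34 members were lower in prieurianin than in DMSO cells and none was higher, where 9.02% of all genes tested were called lower and 7.56% higher. The median log2 difference was -0.57 over the members and -0.01 over all genes. At each of 9, 12 and 15 h, 33 of 34 members were lower than in the DMSO array, where 53.8%, 52% and 49.6% of all genes were. For 27 members all 3 prieurianin arrays lay below all 3 DMSO arrays, as they did for 18.5% of all genes, and for no member did they all lie above.

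Set against untreated cells, 24 members were lower with prieurianin at 9 to 15 h, where 13.9% of all genes were called lower, and Npm1 and Utp18 were higher. The count against DMSO rested on few arrays: it was 11 without the 12 h arrays, 13 without the 15 h arrays, 10 with median centring in place of quantile normalisation, 10 with the wider windows and 12 without matching by time. Against untreated cells it was 14 without the 15 h arrays. In the comparison with DMSO, Polr1b, Tcof1, Nop56, Nop58, Gar1, Nolc1, Npm3, Gnl3, Nop2 and Nop16 kept an adjusted p under 0.05 when any 1 of the 18 times was left out.

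**Figure D3:**
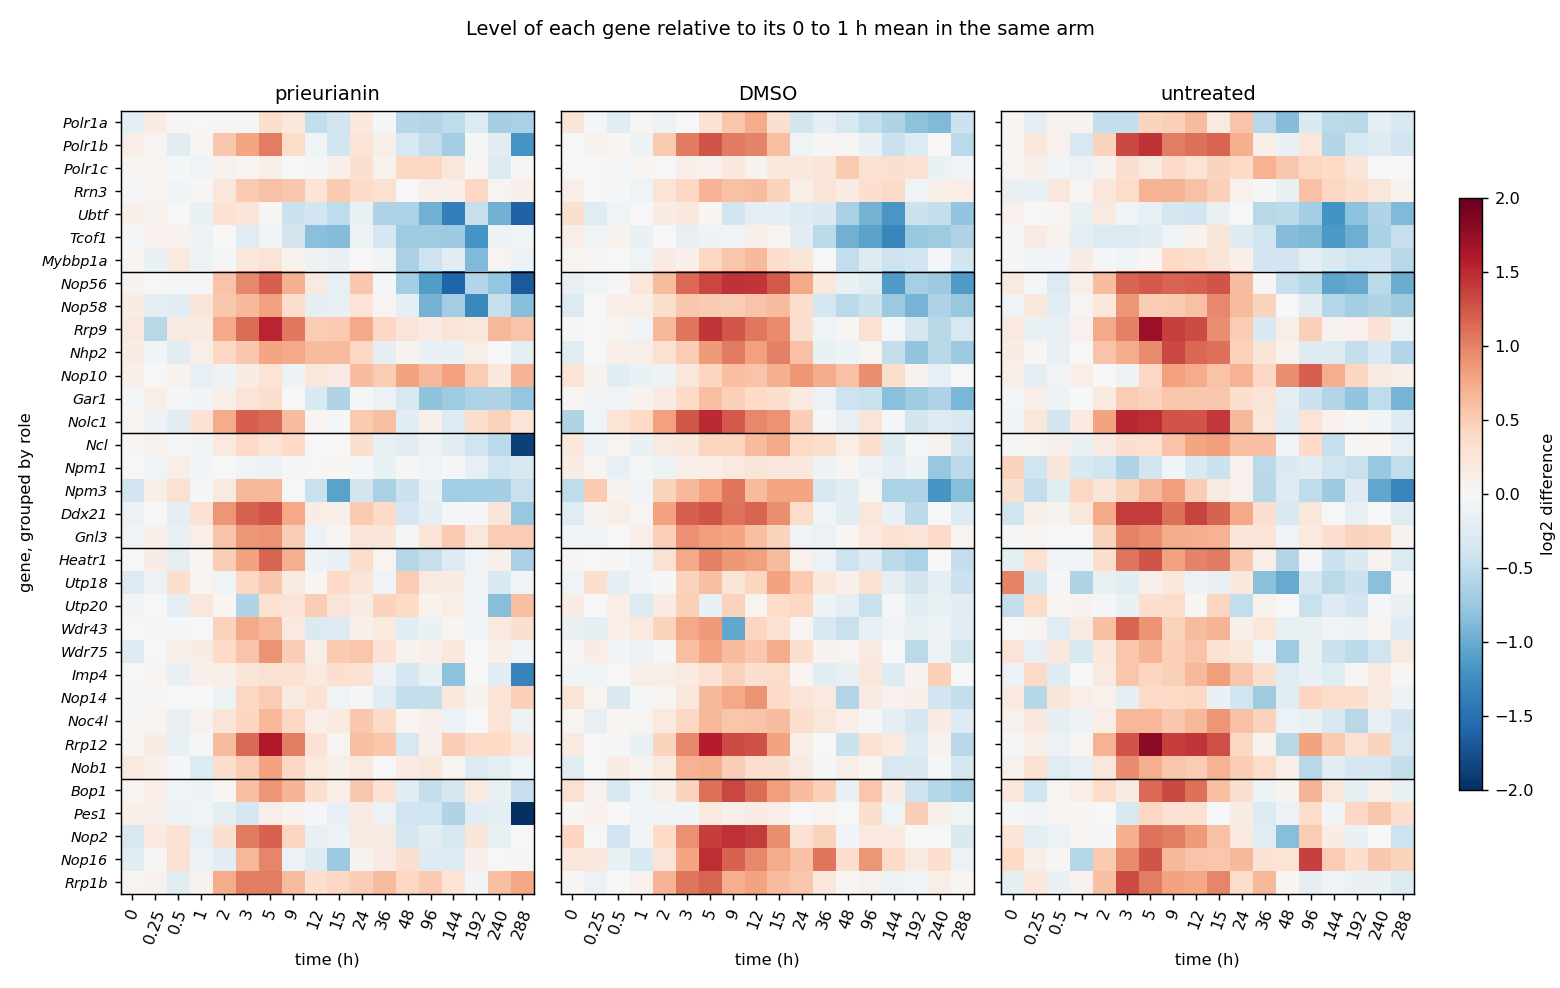
Level of each of the 34 tested members (rows, grouped by role with lines between roles) at each time (columns, in h), as the log2 difference from its own 0 to 1 h mean in the same arm, in prieurianin, DMSO and untreated cells. The red block that starts at 2 to 3 h in every arm fades after 9 h with prieurianin and runs to 15 h in both controls.

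Among the RNA polymerase I genes, 6 of 7 were lower in prieurianin than in DMSO cells at 9 to 15 h, with a median log2 difference of -0.45. Polr1b, which encodes the second-largest subunit of the enzyme, had levels of 9.66, 9.2 and 8.92 in prieurianin cells at 9, 12 and 15 h, against 10.28, 10.23 and 9.85 in DMSO cells and 10.16, 10.25 and 10.3 in untreated cells. The prieurianin arrays lay below all control arrays, and the log2 difference from DMSO was -0.86 ± 0.18 (adjusted p = 0.00099). Polr1a, the largest subunit, had levels of 12.47, 11.77 and 11.87 with prieurianin, against 12.94, 13.13 and 12.72 in DMSO cells and 12.75, 12.91 and 12.45 in untreated cells. Its highest prieurianin value overlapped the lowest untreated one, and the log2 difference from DMSO was -0.89 ± 0.20 (adjusted p = 0.002, and 0.095 without the 12 h arrays).

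Rrn3, the initiation factor that brings RNA polymerase I to the ribosomal promoter, was the member of this group that was not called. It had levels of 13, 12.74 and 12.98 with prieurianin at 9, 12 and 15 h, against 13, 13.03 and 12.85 in DMSO cells and 12.78, 12.69 and 12.57 in untreated cells. The arms overlapped and the log2 difference from DMSO was -0.06 ± 0.12 (adjusted p = 0.82). Rrn3 was one of 4 members called higher than at 0 to 1 h in prieurianin cells, with a log2 change of 0.44 ± 0.13 (adjusted p = 0.011), against 0.57 ± 0.09 in the controls. The others were Rrp9, Nhp2 and Rrp1b, and 9.81% of all genes were called higher in that window. None of the 4 was called with median centring, without scaling or with the wider windows, and of the 4 Nhp2 alone kept its call when any 1 time was left out. In DMSO and in untreated cells taken alone, 22 members each were called higher at 9 to 15 h, where 9.25% and 10.9% of all genes were.

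Tcof1, or treacle, which acts in ribosomal DNA transcription, was the only member called lower at 9 to 15 h than at 0 to 1 h in prieurianin cells, with a log2 change of -0.69 ± 0.20 (adjusted p = 0.0095), where 10.4% of all genes were called lower. The call was lost without the 12 h or the 15 h arrays (adjusted p up to 0.074). In the controls it was not called, with a log2 change of 0.05 ± 0.14 (adjusted p = 0.81). Its levels were 11.17, 10.7 and 10.66 with prieurianin, against 11.57, 11.77 and 11.7 in DMSO cells and 11.38, 11.54 and 11.72 in untreated cells. No prieurianin array reached a control array. The second Tcof1 probe gave a log2 difference from DMSO of -0.92, beside -0.84 for the probe used.

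Ubtf, the upstream binding factor of ribosomal DNA, had a log2 difference from DMSO of -0.40 ± 0.14 (adjusted p = 0.049), a call lost without any 1 of 14 times. Its other probes were at -0.35 and 0.06 against DMSO. In the controls at 9 to 15 h these changed by 0.26 and 0.29, beside -0.27 for the probe used, so the Ubtf probes disagreed. Mybbp1a, a nucleolar partner of RNA polymerase I, had a log2 difference of -0.45 ± 0.14 (adjusted p = 0.021, lost without any 1 of the 3 times of this window). Polr1c, a subunit shared with RNA polymerase III, had a smaller one of -0.26 ± 0.09 (adjusted p = 0.049), which was lost without any 1 of 12 times.

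All 7 snoRNP genes were lower in prieurianin than in DMSO cells at 9 to 15 h, with log2 differences of -0.50 to -1.10. They were also all lower than in untreated cells. Nop56, a core protein of the box C/D snoRNPs that guide methylation of ribosomal RNA, had levels of 13.42, 12.89 and 12.54 in prieurianin cells at 9, 12 and 15 h, against 14.13, 14.11 and 13.91 in DMSO cells and 14.15, 14.19 and 14.24 in untreated cells. It was lower at each of the 3 times, and the gap was wider at 12 and 15 h than at 9 h. The log2 difference from DMSO was -1.10 ± 0.16, a 2.15-fold lower value on this scale (adjusted p = 1e-05).

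Gar1 had the smallest adjusted p of the set. Its levels with prieurianin were 12.97, 12.67 and 12.38, against 13.51, 13.42 and 13.37 in DMSO cells and 13.6, 13.58 and 13.58 in untreated cells. The control arrays sat close together and the prieurianin arrays lay below them at every time, with a log2 difference from DMSO of -0.76 ± 0.11 (adjusted p = 4.4e-06). Nolc1, a chaperone of snoRNP assembly, changed at 2 to 5 h by 1.02 ± 0.23 on the log2 scale with prieurianin and by 1.22 ± 0.16 in the controls, the largest value of any member there. At 9 to 15 h its log2 difference from DMSO was -0.87 ± 0.19 (adjusted p = 0.0017).

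Nop58, the partner of Nop56 in box C/D particles, was at -0.80 ± 0.16 (log2 difference, adjusted p = 0.0008). Rrp9 was at -0.70 ± 0.17, Nop10 at -0.56 ± 0.15 and Nhp2 at -0.50 ± 0.14 on the same scale. The Rrp9 difference lost its call without the 12 h or the 15 h arrays, and Nop10 without the 9 h or the 15 h arrays. Nhp2 lost it without the 9 h, the 12 h or the 15 h arrays. In prieurianin cells the log2 change from 0 to 1 h was 0.69 ± 0.22 for Rrp9 and 0.67 ± 0.17 for Nhp2. The call of this Rrp9 change was lost without the 0.25 h or the 9 h arrays (adjusted p up to 0.15). Its prieurianin array at 0.25 h read 9.54, where the others of the first hour read 10.26 to 10.29.

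Of the nucleolar chaperones and hubs, 4 of 5 were lower than in DMSO cells. Npm3, a histone chaperone of the nucleoplasmin family that binds nucleophosmin, had levels of 10.35, 9.89 and 9.27 in prieurianin cells at 9, 12 and 15 h, against 11.44, 11.01 and 11.16 in DMSO cells and 11.58, 11.24 and 10.93 in untreated cells. This was the widest separation in the set, with a log2 difference from DMSO of -1.37 ± 0.24, or 2.59-fold lower (adjusted p = 0.0001). At 15 h the Npm3 level of 9.27 also lay below all 4 prieurianin arrays of the first hour, which read 9.95 to 10.64, though the change from 0 to 1 h was not called (log2 change -0.51 ± 0.27, adjusted p = 0.19).

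Gnl3, or nucleostemin, a nucleolar GTPase of proliferating cells, had a log2 difference from DMSO of -0.58 ± 0.11 (adjusted p = 0.00035). Ddx21 was at -0.66 ± 0.16 (log2 difference, adjusted p = 0.0034) and Ncl, or nucleolin, a main protein of the nucleolus, at -0.63 ± 0.20 (adjusted p = 0.026), and both calls were lost without the 12 h or the 15 h arrays. The exception was Npm1, or nucleophosmin, at -0.24 ± 0.13 (adjusted p = 0.25). Its brightest probe was saturated on 1 array and did not move in the controls (log2 change -0.02 ± 0.11 at 9 to 15 h), while its other probe rose by 1.28 in the controls and was at -0.64 against DMSO, so the 2 probes of Npm1 disagreed.

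Of the 10 small subunit factors, 3 were called lower in prieurianin than in DMSO cells. Rrp12 had levels of 11.26, 10.53 and 10.3 in prieurianin cells at 9, 12 and 15 h, against 11.54, 11.51 and 11.05 in DMSO cells and 11.41, 11.45 and 11.31 in untreated cells. Only the 9 h prieurianin value reached the range of a control arm, and the log2 difference from DMSO was -0.67 ± 0.15 (adjusted p = 0.0023, and 0.096 without the 12 h arrays). Heatr1, a scaffold of the early processome, was at -0.70 ± 0.16 (log2 difference, adjusted p = 0.0021, lost without the 12 h arrays). Noc4l, which acts in small subunit assembly with Nop14, was at -0.42 ± 0.11 (adjusted p = 0.0073, lost without the 12 h or the 15 h arrays).

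The 7 small subunit factors that were not called were Utp18, Utp20, Wdr43, Wdr75, Imp4, Nop14 and Nob1, with log2 differences of -0.01 to -0.52. Wdr43, a processome component, had levels of 11.75, 11.27 and 11.29 with prieurianin, against 10.51, 11.98 and 11.86 in DMSO cells and 12.1, 12.28 and 12.33 in untreated cells. The DMSO array at 9 h stood apart from all others for this probe, and the log2 difference was -0.01 ± 0.20 against DMSO and -0.80 ± 0.20 against untreated cells (adjusted p = 0.98 and 0.0033). A second Wdr43 probe gave -0.59 against DMSO. Utp20 was a dim probe, with levels of 5.73 to 7.23 over all arrays.

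Against untreated cells the small subunit count was 6 of 10 lower, with Imp4, Nob1 and Wdr43 in addition, and Utp18 higher. Imp4, a protein of the U3 snoRNP, had log2 differences of -0.17 ± 0.17 from DMSO and -0.59 ± 0.17 from untreated cells.

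Among large subunit factors, 4 of 5 were lower than in DMSO cells. Nop2, a methyltransferase of large subunit ribosomal RNA whose promoter is printed above, had levels of 11.51, 10.94 and 10.97 in prieurianin cells at 9, 12 and 15 h, against 12.49, 12.43 and 11.96 in DMSO cells and 12.29, 12.12 and 11.85 in untreated cells. The prieurianin arrays lay below every control array, and the log2 difference from DMSO was -1.15 ± 0.19, or 2.22-fold lower (adjusted p = 6.4e-05). Its log2 change from 0 to 1 h was 0.05 ± 0.25 with prieurianin and 1.04 ± 0.18 in the controls.

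Nop16, a factor of early large subunit particles, had levels of 7.51, 7.38 and 6.89 with prieurianin, against 8.62, 8.4 and 8.19 in DMSO cells and 7.85, 7.76 and 7.74 in untreated cells. Prieurianin was lowest of the arms at each time, but the 2 control arms lay apart: the log2 difference was -1.14 ± 0.21 from DMSO (adjusted p = 0.00019) and -0.52 ± 0.21 from untreated cells (adjusted p = 0.064). Bop1, a subunit of the complex it forms with Pes1 and Wdr12 for large subunit maturation, was at -0.74 ± 0.21 against DMSO (log2 difference, adjusted p = 0.014) and -0.47 ± 0.21 against untreated cells (adjusted p = 0.11). Rrp1b, a nucleolar protein of the large subunit precursor, was at -0.41 ± 0.14 against DMSO (adjusted p = 0.038). The calls of Bop1 and Rrp1b were lost without the 12 h or the 15 h arrays. Pes1, which was also not called in the controls, was at -0.13 ± 0.22 (adjusted p = 0.76).

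**Figure D4:**
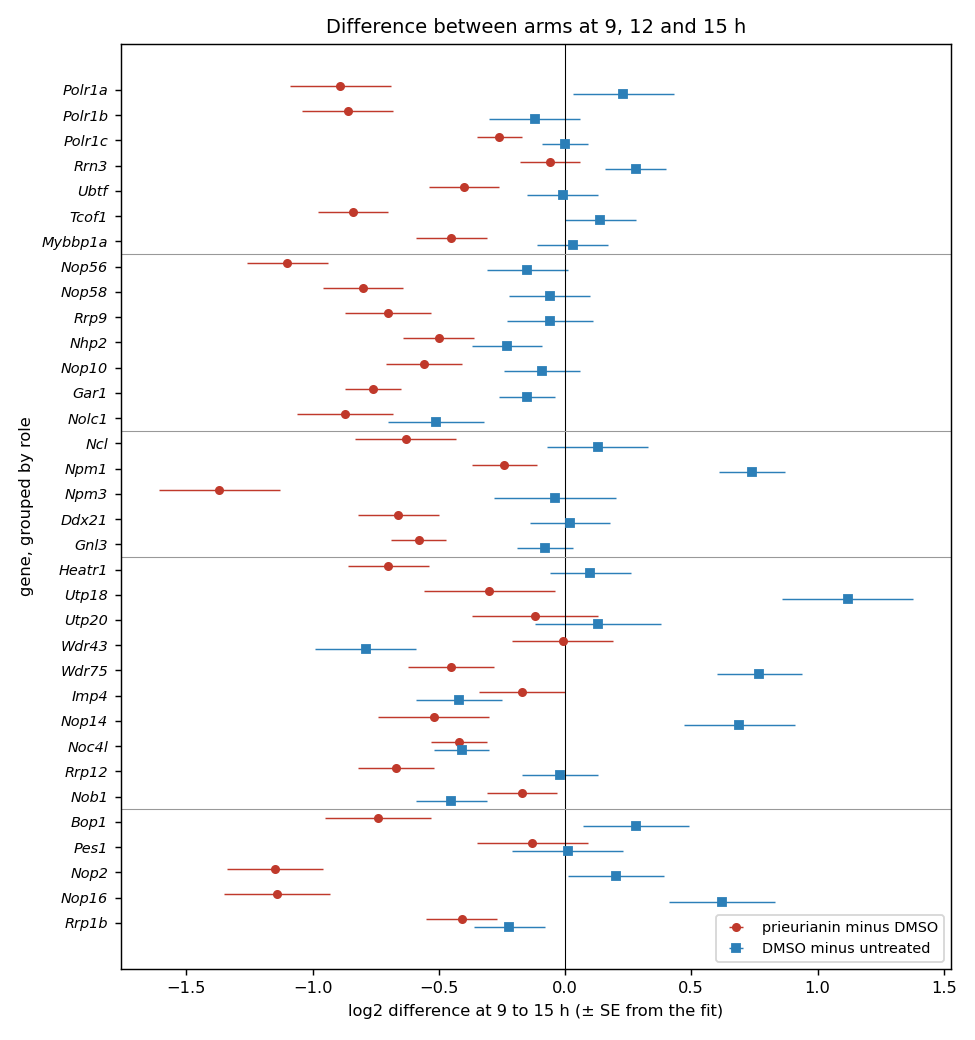
Log2 difference at 9 to 15 h for each of the 34 members (rows, grouped by role), prieurianin minus DMSO (red circles) and DMSO minus untreated (blue squares), with standard errors from the fit. The red points all lie at or left of 0, down to -1.37 for Npm3, while the blue points lie on both sides of 0.

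A stricter comparison set the change from 0 to 1 h to 9 to 15 h in prieurianin cells against the same change in DMSO cells. Of the 34 members, 11 had a lower change with prieurianin and none a higher one, where 3.07% of all genes tested were called lower. These were Nop16, Npm3, Nop2, Nop56, Polr1b, Nolc1, Tcof1, Ddx21, Gar1, Rrp12 and Gnl3. For Nop56 the difference of the 2 changes was -1.13 ± 0.21 on the log2 scale (adjusted p = 0.00084). The count was 4 without the 15 h arrays, 3 with median centring and 0 with the wider windows.

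The 2 control arms were set against each other in the same fit. At 9 to 15 h, Npm1, Utp18 and Wdr75 were higher and Wdr43 and Noc4l lower in DMSO than in untreated cells, where 5.39% of all genes were called in either direction. No member was called higher in DMSO cells without the 15 h arrays. The median log2 difference over the members was 0. For Utp18, a processome protein, the log2 difference between DMSO and untreated cells was 1.12 ± 0.26 at 9 to 15 h (adjusted p = 0.011), and it was called in the same direction at 2 to 5, 24 to 48 and 96 to 288 h too. Utp18 and Npm1 were called higher with prieurianin than in untreated cells and were not called against DMSO.

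By 24 h the gap in the mean level had closed. The mean level of the members was 11.74, 11.56 and 11.33 in prieurianin cells at 24, 36 and 48 h, against 11.81, 11.58 and 11.41 in DMSO cells and 11.8, 11.49 and 11.26 in untreated cells. No member was called between prieurianin and DMSO at 24 to 48 h, where 1.4% of all genes were, and 3 members had an unadjusted p under 0.05. Against untreated cells some members were called in each direction in this window, as some were between DMSO and untreated cells. The members' median log2 difference between prieurianin and untreated cells was -0.07, beside -0.02 over all genes. The prieurianin mean was thus higher at 24 h than at 15 h (11.74 and 11.44), while both controls were lower at 24 h than at 15 h. The DNA replication list had its highest mean in prieurianin cells at the same 24 h, at 11.88. At 9 to 15 h, 26 of its 28 genes were lower in prieurianin than in DMSO cells and none was higher. Over all genes tested, 9.02% were called lower and 7.56% higher. The list's median log2 difference was -1.04, beside -0.57 for the members, so the dip was not particular to ribosome biogenesis genes.

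At 96 to 288 h the members called went in mixed directions, and with all arrays their share was near that of all genes. Of 34 members 5 were lower and 1 was higher in prieurianin than in DMSO cells, where 17.9% of all genes were called in either direction. Without the prieurianin array at 192 h, 5 were lower and 2 higher, and 28.4% of all genes were called. Nop58 and Rrp12 then lost their calls, Nop56 was called lower (log2 difference -0.50 ± 0.12, adjusted p = 0.0018) and Tcof1 and Rrp1b higher (0.38 ± 0.09 and 0.35 ± 0.11, adjusted p = 0.0025 and 0.012). Pes1 had levels of 11.74, 11.53, 11.9, 11.94 and 9.87 in prieurianin cells at 96, 144, 192, 240 and 288 h, against 12.41, 12.01, 12.58, 12.22 and 12.01 in DMSO cells and 12.37, 11.95, 12.43, 12.55 and 12.34 in untreated cells. It was lower at each of the 5 times, the last array stood far below the rest, and the log2 difference from DMSO was -0.85 ± 0.17 (adjusted p = 0.00092) with that time and -0.53 without it.

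Ncl was likewise carried in part by the array at 288 h. Its levels were 11.51, 11.41, 11.23, 11.1 and 9.75 with prieurianin, against 12.1, 11.51, 11.75, 11.86 and 11.39 in DMSO cells and 11.89, 11.05, 11.53, 11.55 and 11.35 in untreated cells. The log2 difference from DMSO was -0.72 ± 0.15 (adjusted p = 0.0014), and -0.49 without 288 h. Imp4 was at -0.67 ± 0.13 (log2 difference, adjusted p = 0.0007), Ubtf at -0.53 ± 0.11 (adjusted p = 0.0011) and Nop58 at -0.41 ± 0.13 (adjusted p = 0.022). Rrp12 was the member called higher, at 0.37 ± 0.12 (adjusted p = 0.027). Its call was lost without the arrays at 144, 192, 240 or 288 h, and that of Nop58 without those at 96, 192 or 288 h.

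The state of the cells differed in this window. The mean level of the 7 adipocyte markers over 96 to 288 h was 12.24 in prieurianin cells, or 11.67 without the array at 192 h, against 14.13 in DMSO cells and 14.08 in untreated cells. At 9 to 15 h it was 7.83, against 8.18 and 8.26. The mean of the 6 preadipocyte markers at 9 to 15 h was 13.33 in prieurianin cells, against 13.57 in DMSO cells and 13.74 in untreated cells. Their part in the results above was not tested.

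Other genes of the same pathway were taken from a wider list. Of 91 further ribosome biogenesis factors tested, 68 rose and 1 fell in the controls at 9 to 15 h, where 17.8% of all genes were called higher and 16.5% lower, and the median log2 change was 0.46. Of the same 91, 39 were lower and none higher in prieurianin than in DMSO cells, where 9.02% of all genes were called lower and 7.56% higher, and the median log2 difference was -0.35. These shares of all genes apply to the lists that follow too. Rrs1, a factor for the docking of the 5S particle in the large subunit, had levels of 12.75, 12.42 and 12.55 in prieurianin cells at 9, 12 and 15 h, against 13.23, 13.09 and 12.86 in DMSO cells and 12.92, 12.89 and 12.65 in untreated cells. It was lowest with prieurianin at every time, by a log2 difference from DMSO of -0.49 ± 0.09 (adjusted p = 0.00025).

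The RNA exosome, which trims ribosomal RNA precursors, was measured through 12 genes, of which 9 rose in the controls and 8 were lower with prieurianin than with DMSO at 9 to 15 h. Exosc6 had levels of 12.29, 11.88 and 12.08 in prieurianin cells, against 13.31, 13.31 and 13.25 in DMSO cells and 13.42, 13.44 and 13.34 in untreated cells. The arms did not overlap, and the log2 difference from DMSO was -1.2 ± 0.12 (adjusted p = 1.1e-08).

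Of 18 genes of nucleotide and polyamine synthesis, 14 were higher in the controls and 14 were lower in prieurianin than in DMSO cells at 9 to 15 h. Srm, the spermidine synthase, had levels of 13.88, 12.82 and 12.97 with prieurianin, against 14.73, 14.62 and 14.34 in DMSO cells and 14.84, 14.74 and 14.64 in untreated cells. Its log2 difference from DMSO was -1.34 ± 0.18 (adjusted p = 2.8e-06). Ppat and Umps, enzymes of purine and pyrimidine synthesis, were at -1.02 ± 0.17 and -0.98 ± 0.19 (adjusted p = 5.1e-05 and 0.00055).

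Of 18 tRNA and translation factors, 9 rose in the controls at 9 to 15 h, where 17.8% of all genes did. Between prieurianin and DMSO cells 2 were higher (Eif4ebp1 and Polr3g) and 2 lower (Eif3b and Eif4e), with a median log2 difference of -0.06; these shares are near the 7.56% and 9.02% of all genes, and the 4 genes are named after their values were seen. Aimp2, a scaffold of the aminoacyl-tRNA synthetase complex, changed from 0 to 1 h by 0.91 ± 0.18 with prieurianin and 0.89 ± 0.13 in the controls. Of 21 cytosolic ribosomal protein genes tested, 1 rose in the controls and 1 was lower with prieurianin than with DMSO. It was Rps19 in both comparisons, with log2 values of 0.75 ± 0.14 and -1.0 ± 0.16 (adjusted p = 2.9e-05 and 4.7e-05). In the comparison with untreated cells at 9 to 15 h, 6 of the 21 were lower with prieurianin and none higher, where 13.9% of all genes were called lower. The controls differed too: 3 of the 21 were lower in DMSO than in untreated cells, where 5.39% of all genes were called in either direction. Saturation was not examined for the probes of these 21 genes. The few calls against DMSO therefore do not show that these genes stayed level.

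**Figure D5:**
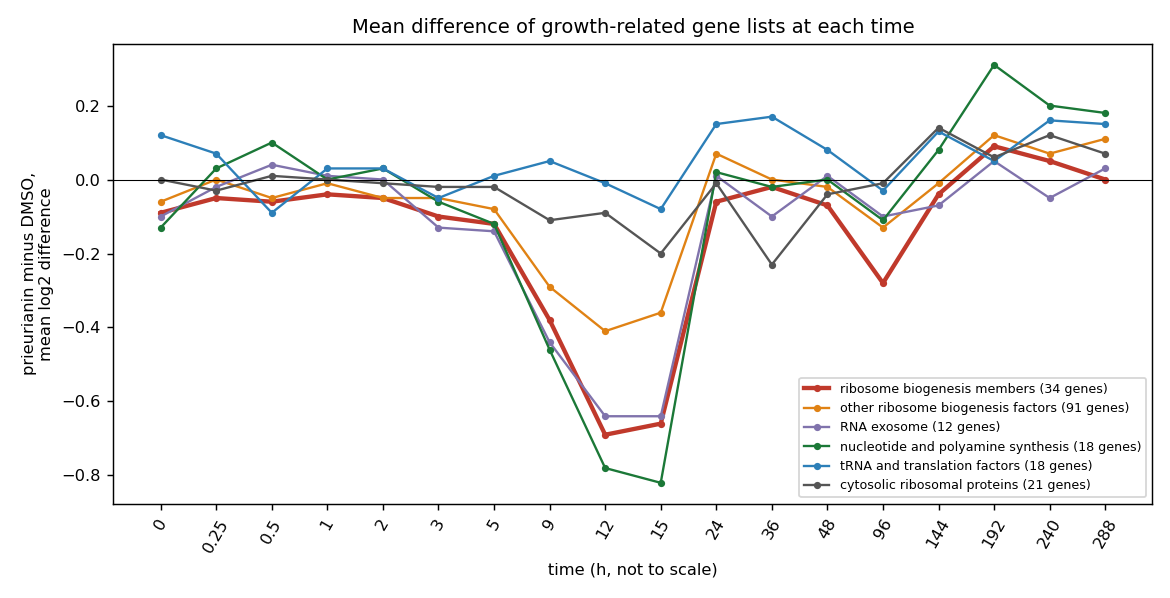
Mean log2 difference between prieurianin and DMSO (vertical axis) at each time (horizontal axis, not to scale) for the 34 members and 5 related gene lists, 1 pair of arrays per time. The members, the other factors, the exosome and nucleotide and polyamine synthesis dip at 9, 12 and 15 h, the members to -0.69 at 12 h, and return to near 0 at 24 h, while translation factors and ribosomal proteins stay nearer 0.

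Myc, which encodes a known activator of ribosome biogenesis genes, had its highest level at 1 h in every arm, ahead of the members' highest mean at 5 h. It stood at 10.33 in prieurianin cells, 10.52 in DMSO cells and 11.11 in untreated cells. At 9, 12 and 15 h it was 9.4, 9.32 and 8.92 with prieurianin, against 9.49, 9.45 and 9.24 in DMSO cells and 9.96, 10.01 and 9.35 in untreated cells. The log2 difference was -0.18 ± 0.18 from DMSO (adjusted p = 0.58) and -0.56 ± 0.18 from untreated cells (adjusted p = 0.022), so Myc passed the test against 1 control and not against the other. Myc was already lower than in untreated cells in the first hour. At 0, 0.25, 0.5 and 1 h it was 9.04, 9.04, 9.35 and 10.33 with prieurianin. Untreated cells gave 9.52, 9.17, 10.3 and 11.11, so the difference from untreated cells did not begin at 9 h.

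Of the 10 tested genes of the MYC network, 2 were higher and 1 lower in prieurianin than in DMSO cells at 9 to 15 h, where 7.56% and 9.02% of all genes were. The lower one was Mxd3, a MAX partner, at a log2 difference of -1.37 ± 0.24 (adjusted p = 0.00015), and Mlx, a MAX-like protein, was higher, at 0.57 ± 0.12 (adjusted p = 0.0013); both are named after their values were seen. Mxi1, a MAX partner that competes with MYC for E-boxes, had levels of 10.89, 11.2 and 11.24 in prieurianin cells at 9, 12 and 15 h, against 9.29, 9.19 and 9.52 in DMSO cells and 8.77, 8.9 and 9.01 in untreated cells. Every prieurianin array was above every control array, with log2 differences of 1.78 ± 0.18 from DMSO (adjusted p = 1.8e-08) and 2.22 ± 0.18 from untreated cells (adjusted p = 3e-10). At 24 h Mxi1 stood at 10.12 with prieurianin, against 10 in DMSO cells and 10.25 in untreated cells. Its levels at 96, 144 and 192 h were 10.41, 11.01 and 11.12 with prieurianin. They were 10.43, 11.19 and 11.24 in DMSO cells and 10.47, 10.61 and 10.83 in untreated cells, so prieurianin was not above DMSO there. At 240 and 288 h Mxi1 was higher with prieurianin, at 11.14 and 11.13, against 10.25 and 10.37 in DMSO cells and 10.02 and 10.2 in untreated cells. At these 2 times the members' mean level was 11.37 and 11.15 with prieurianin, against 11.32 and 11.14 in DMSO cells and 11.34 and 11.18 in untreated cells. A part of Mxi1 in the course of the members was not tested. Mnt and Mxd4, other partners of MAX, had log2 differences from DMSO of 0.29 ± 0.15 and -0.33 ± 0.14 (adjusted p = 0.21 and 0.11).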

How the data were processed

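Total RNA of 3T3-L1 cells was hybridised to the Phalanx Mouse OneArray in 1 colour, per the labels' protocols. The authors deposited 1 column of probe intensity per array; background correction and scaling are not given in the sources used here, and 0.466% of the intensity values were below 0. Probes were named from the platform annotation (21020 probes with a symbol, of which 3410 were updated to the RefSeq table and 52 kept as annotated). Values were floored at 0, quantile normalised and taken as log2(value + 16). Each gene was represented by its probe with the highest mean, and genes below the lower quartile (6.07) were left out.

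Both models were fitted with limma 3.58.1 in R 4.3.3 over all arrays and tested genes, with Benjamini-Hochberg adjustment at 0.05. The change over the course used 1 mean per arm and window (39 residual degrees of freedom). Differences between arms used time as a factor and an arm effect per window (26 residual degrees of freedom). Controls were read as the mean of the DMSO and untreated changes. The script was tested on simulated data. The members and lists were chosen with earlier results of these data known, so no p-value is given for a list.

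Members given with values were the 8 with the largest moderated t in the controls at 2 to 5 h and at 9 to 15 h, the 6 for prieurianin minus DMSO at 2 to 5, 9 to 15 and 96 to 288 h, members called against the majority, the leader of each role and textbook members; further members were named to account for each role. From other lists up to 3 genes with the largest t in the controls at 9 to 15 h, and Myc, were given. Alternatives covered normalisation, pseudocount, filter, probes, windows, matching by time and single times, and leaving out the untreated array at 1 h was chosen after seeing the data.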

Additional observations from a re-analysis of the deposited data

Results flagged for a closer look

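Among 42 groups of values tested for a single array far from the rest, 3 were marked. Different genes were tested on the same arrays, so the groups were not independent. The 3 genes marked were also among the members called between prieurianin and DMSO cells at 96 to 288 h. The chance rate of about 1 in 20 therefore cannot be applied to this count. In prieurianin cells at 288 h, Ncl had a level of 9.75, where the other arrays of that arm at 96 to 240 h read 11.1 to 11.51. Pes1 on the same array had a level of 9.87, where the others read 11.53 to 11.94. In untreated cells at 96 h, Nop58 had a level of 12.17, where the later arrays read 11.67 to 11.81.

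For 11 members the change from 0 to 1 h to 9 to 15 h differed between prieurianin and DMSO cells in limma's test of that difference, lower with prieurianin in each. The log2 differences of change were -1.34 for Nop16 (adjusted p = 0.0018), -1.34 for Npm3 (0.0067), -1.21 for Nop2 (0.0023) and -1.13 for Nop56 (0.00084). They were -0.90 for Polr1b (0.016), -0.82 for Nolc1 (0.049), -0.73 for Tcof1 (0.013) and -0.72 for Ddx21 (0.033). For Gar1 the value was -0.72 (0.0011), for Rrp12 -0.67 (0.04) and for Gnl3 -0.48 (0.04).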

How the results depend on the processing

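No paired analysis was possible because the labels carry no replicate numbers to pair by; matching by time is part of the fit between arms. The 21 members higher in controls at 2 to 5 h were 13 without scaling and 17 to 21 with single times left out. The 27 at 9 to 15 h were 9 with windows of 0 to 3 and 5 to 48 h, and 25 to 27 with times left out. The 11 lower at 96 to 288 h were 7 with median centring, 19 without scaling and 10 to 13 with times left out. The 17 higher with prieurianin at 2 to 5 h were 6 with median centring, 4 without scaling and 6 (without 5 h) to 18 with times left out. The 4 at 9 to 15 h were 0 with median centring, without scaling and with the wider windows, and 1 to 4 with times left out. Against DMSO at 9 to 15 h, the 24 lower members were 10 with median centring, 10 with the wider windows, 12 without a time block and 11 to 25 with times left out; against untreated cells, 24 were 14 (without 15 h) to 25. At 96 to 288 h, 5 lower members were 3 with median centring, 3 with the mean of all probes and 4 to 6 with times left out. The 3 higher in DMSO than untreated cells were 0 with median centring, 1 without scaling, 6 with the wider windows and 0 (without 15 h) to 5. The 11 lower differences of change were 3 with median centring, 7 without scaling, 0 with the wider windows, 6 with a random block, 3 without a time block, 6 with the compared arms alone and 4 to 15 with times left out. The cause was not tested. Npm1 at 9 to 15 h in controls turned to 0.63 with the mean of all probes, beside -0.02. Of 3575 values of single members under alternatives, 3347 kept direction and side of the threshold, 204 fell short of it, 23 newly passed and 1 reversed. Without scaling, the median of all genes in controls at 2 to 5 h was -0.41 and the members' 0.22; for prieurianin minus DMSO at 9 to 15 h these were -0.08 and -0.66. Of all genes called there, 45.6% were higher, or 34.8% without scaling; in controls, 46%, 59.7% (median centring) and 6.45% (no scaling) at 2 to 5 h, and 51.9% and 36.9% (no scaling) at 9 to 15 h; with prieurianin at 9 to 15 h, 48.7%, 27.7% and 20.6%.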
